A study of Arabidopsis thaliana with 4 samples.

Results

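AT1G78450 and AT1G78460 are adjacent protein-coding genes on chromosome 1 of Arabidopsis that were assigned to the SOUL heme-binding family. Both were chosen by locus, with their lower signal in the *aln-1* mutant already known from these arrays, and each had 1 probe set that the platform's annotation lists with that gene alone. They are thus 2 of the 12719 genes with such a probe set and values, and 2 of 21754 features when the probe sets with several genes or none listed are included. The comparison of *aln-1* with the wild type (WT) helped to choose both genes, so their values in it are given as a description with no test.

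SOUL proteins are small proteins named after a member found in the chicken retina and pineal gland. They bind heme and other tetrapyrroles, the ring-shaped pigments from which plants also make chlorophyll and the light-sensing bilins. In plants, family members of the cytosol and of the chloroplast have been proposed to bind or carry tetrapyrroles, which are toxic when they are free in the cell. What the proteins of AT1G78450 and AT1G78460 do is not annotated in the tables used here, and no sequence of either gene was used here.

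The arrays were Affymetrix ATH1 arrays, with 2 for *aln-1* and 2 for WT, the control. The *aln-1* line carries a T-DNA insertion in *ALLANTOINASE* (*ALN*), whose product hydrolyses allantoin in purine catabolism. It is 1 insertion line in the Col-0 background, which is also that of WT, and neither a further allele nor a complemented line was analysed here. By the labels, RNA came from aerial parts of seedlings harvested 2 weeks after germination, which the root markers below could check only in part. The seedlings had grown without added treatment on 1/2MS medium with 1% sucrose under 16 h light and 8 h dark, at 22 °C by the labels. Nothing in the labels says that the replicates were separate cultures, so errors and p-values refer to the spread among these 4 arrays alone, and that spread may be technical. With so few arrays, precision is limited throughout.

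Each value is the normalized score that the authors deposited for a probe set on an array. Neither the methods nor the table names the base of its logarithm, so differences are given in the deposited units and not as fold changes. The scores ran from -1.01 to 2.89 and from -0.776 to 2.85 on the *aln-1* arrays, and from -0.625 to 3.08 and from -0.717 to 2.94 on the WT arrays. Over all features the median difference, *aln-1* minus WT, was -0.0320. Across features, arrays correlated at 0.981 within *aln-1*, at 0.987 within WT and at 0.901 to 0.947 between the genotypes. *ALN* itself scored -0.0466 and 0.00508 in *aln-1*, against 0.367 and 0.442 in WT, a difference of -0.425 (SE 0.0505, adjusted p = 0.0116 from limma). The sources used here do not say where its probes lie relative to the insertion. The adjusted p of *ALN* was 0.0845 when WT replicate 1 was left out and 0.0726 when WT replicate 2 was.

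AT1G78450 had the larger difference of the pair. It scored -0.261 and -0.404 on the *aln-1* arrays, against 1.11 and 1.03 on the WT arrays. The mutant arrays thus lay below zero and the WT arrays above 1, with no overlap. The *aln-1* mean was -0.332 ± 0.101 and the WT mean 1.07 ± 0.0571 (SD, n = 2 arrays each), a difference of -1.40. Every pairing of an *aln-1* array with a WT array gave a difference between -1.51 and -1.29, while arrays of the same genotype differed by 0.142 in *aln-1* and by 0.0807 in WT. Within the arrays, 24.7% and 12.9% of all features scored below AT1G78450 in *aln-1*, against 89.4% and 87.2% in WT. In *aln-1* its signal was therefore among the low scores of the arrays, where a change of transcript can be compressed, and the table used here has no detection call that would tell a low transcript from none.

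AT1G78460 was lower in *aln-1* as well, but kept a middling score there. It scored 0.516 and 0.369 on the *aln-1* arrays, against 1.21 and 1.20 on the WT arrays. Both mutant arrays were below both WT arrays, and the mutant arrays were the more variable ones. The *aln-1* mean was 0.442 ± 0.104 and the WT mean 1.21 ± 0.00186 (SD, n = 2 arrays each), a difference of -0.763. Across the pairings of arrays the difference lay between -0.838 and -0.688, beside a gap of 0.147 between the *aln-1* arrays and of 0.00263 between the WT arrays. Within the arrays, 68.6% and 61.2% of all features scored below AT1G78460 in *aln-1*, against 91.4% and 91.0% in WT. In both genes *aln-1* replicate 2 had the lower score of the mutant arrays.

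**Figure D1:**
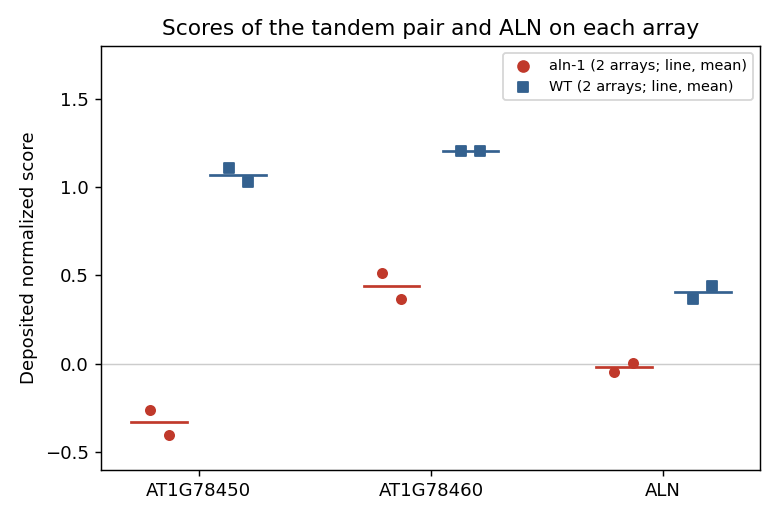
Deposited normalized score (y axis) of AT1G78450, AT1G78460 and *ALN* on each of 2 *aln-1* arrays (circles) and 2 WT arrays (squares), with short lines at the means. AT1G78450 averaged -0.332 in *aln-1* and 1.07 in WT, and AT1G78460 averaged 0.442 in *aln-1* and 1.21 in WT.

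In deposited units the difference of AT1G78460 was 54.5% of that of AT1G78450. The difference of AT1G78450 minus that of AT1G78460 was -0.636, and it lay between -0.678 and -0.595 over the 4 pairings of an *aln-1* with a WT array. A ratio of such differences need not equal a ratio of transcript changes, since each probe set has its own response to transcript and the scale of the score is not named.

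Ordered from the most negative difference, AT1G78450 stood at position 20 and AT1G78460 at position 114 of the 21754 features. Among the 12719 genes with a name they stood at positions 8 and 59. The 1st percentile of all differences was -0.607 and the 5th percentile was -0.330, so that both genes lay beyond the 1st. The lowest difference of any feature was -2.38. Arrays of the genotypes without overlap, with *aln-1* lower, were common in the table, at 41.4% of all features, and both genes of the pair were of this kind. At an adjusted p under 0.05 from limma, 8.17% of all features were lower in *aln-1* and 7.42% were higher. Because their low signal was known when the pair was chosen, nothing is read from these counts for AT1G78450 and AT1G78460.

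**Figure D2:**
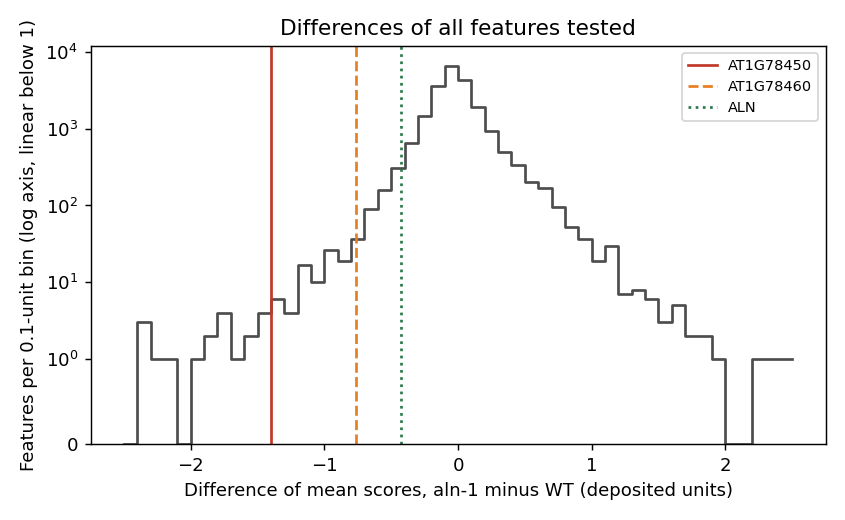
Number of features (y axis, logarithmic above 1) in each bin of the difference of mean scores, *aln-1* minus WT (x axis, deposited units), over the 21754 features tested. The vertical lines mark AT1G78450 at -1.40, AT1G78460 at -0.763 and *ALN* at -0.425, all on the lower side of a distribution with its median at -0.0320.

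Other members of the family could not be set beside the pair. The cytosolic heme-binding protein genes *HBP1* (AT1G17100) and *SOUL-1* (AT2G37970, also called *HBP2*), the *HBP5* gene (AT5G20140) and AT3G10130 had no probe set listed with them alone in the annotation used here, and were not analysed here. Of 6 genes in the family list, the measured ones were therefore the 2 of the tandem pair. Whether the lower signal was particular to the pair within its family was not tested.

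The table allowed the pair to be set among all adjacent genes of the nuclear chromosomes. Of 5508 pairs of adjacent protein-coding genes in which both genes had a named probe set, 18.6% had arrays without overlap and *aln-1* lower for both genes, and 0.781% (43 pairs) had both genes lower at an adjusted p under 0.05 from limma. The pair was chosen with its low values known, so its place among these pairs is a description and nothing is read from it.

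**Figure D3:**
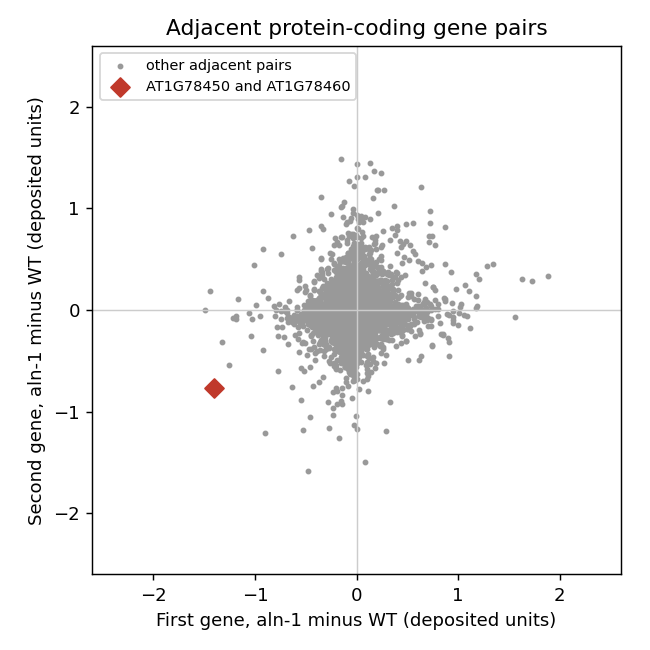
Difference of mean scores, *aln-1* minus WT in deposited units, of the first gene (x axis) and the second gene (y axis) of each of 5508 pairs of adjacent protein-coding genes. The diamond in the lower left marks AT1G78450 at -1.40 and AT1G78460 at -0.763, a place fixed by the choice of the pair.

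Of the 10 protein-coding loci on each side of the pair, 9 of these 20 had a named probe set. At an adjusted p under 0.05 from limma, 1 of the 9 was lower in *aln-1* and none was higher, beside 8.17% lower and 7.42% higher over all features, so the count was near the background. At an unadjusted p under 0.05 from limma, 5 of the 9 were lower and none was higher, beside 20.8% lower and 14.5% higher over all features. The median difference of the 9 was -0.191, beside -0.0320 over all features. The nearest measured neighbour was AT1G78470, which follows AT1G78460 directly. It scored 0.105 and 0.122 in *aln-1*, against 0.0959 and 0.0199 in WT, a difference of 0.0559 (SE 0.0483, adjusted p = 0.455 from limma), so its difference was slight and of the opposite sign to the pair's. On the other side, *ATGA2OX1*, *RIP4* and AT1G78420 separate the pair from the next measured gene, and none of these had a named probe set.

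AT1G78480, the third locus after the pair, scored -0.165 and -0.306 in *aln-1*, against 0.0432 and -0.0178 in WT, a difference of -0.248 (SE 0.0636, adjusted p = 0.0591 from limma). AT1G78410, the fourth locus before the pair, had a difference of -0.623 with an SE of 0.151 and an adjusted p of 0.0522. Its WT arrays, at 0.238 and -0.186, stood apart, and its difference was -0.411 (adjusted p = 0.159) without WT replicate 1 and -0.835 (adjusted p = 0.0489) without WT replicate 2. For AT1G78480 the difference was -0.319 (adjusted p = 0.0277) without *aln-1* replicate 1 and -0.178 (adjusted p = 0.140) without *aln-1* replicate 2. The neighbour lower at an adjusted p under 0.05 from limma was *GSTU20*. It encodes a tau-class glutathione transferase of the kind that joins glutathione to reactive or foreign compounds. *GSTU20* scored 1.69 and 1.24 in *aln-1*, against 2.21 and 2.32 in WT, a difference of -0.792 (SE 0.150, adjusted p = 0.0304 from limma). It stands 8 loci before the pair. Its adjusted p was 0.155 when WT replicate 1 was left out and 0.148 when WT replicate 2 was. Next to it, the related genes *GSTU21* and *GSTU22* had differences of -0.191 (adjusted p = 0.240) and 0.223 (adjusted p = 0.337), and *GSTU19* was not analysed here. Without *aln-1* replicate 1 the differences of *GSTU21* and *GSTU22* were -0.0485 (adjusted p = 0.602) and 0.434 (adjusted p = 0.0347), and without *aln-1* replicate 2 they were -0.333 (adjusted p = 0.0440) and 0.0130 (adjusted p = 0.939). On the far side of the pair, AT1G78530 and AT1G78550 had differences of -0.180 (adjusted p = 0.0710) and -0.194 (adjusted p = 0.0589), and AT1G78400, 5 loci before it, one of 0.0996 (adjusted p = 0.190).

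**Figure D4:**
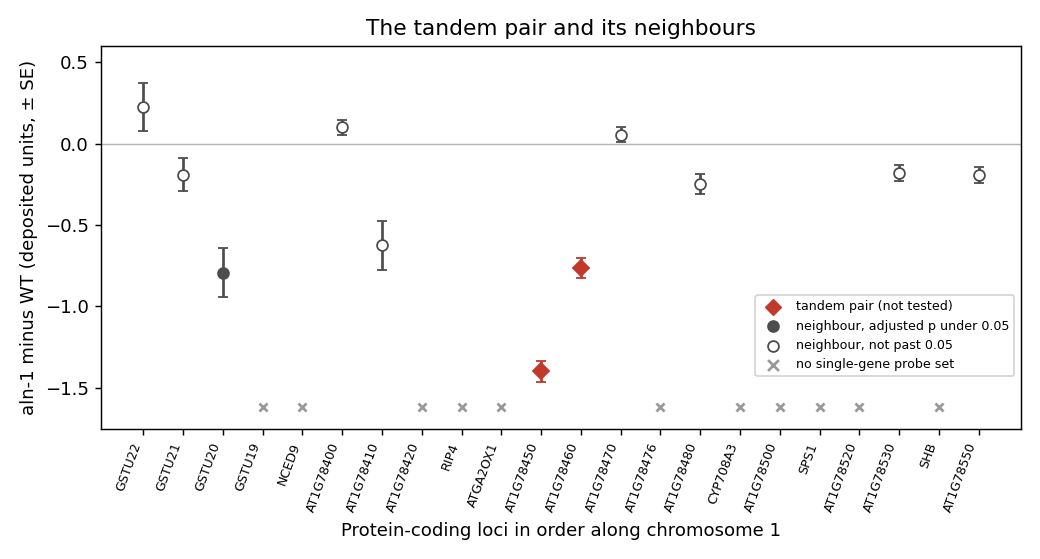
Difference of mean scores, *aln-1* minus WT in deposited units with the standard error of the moderated fit (y axis), for the tandem pair (diamonds) and its 10 protein-coding neighbours on each side in chromosome order (x axis). Filled circles passed an adjusted p of 0.05, open circles did not, and crosses mark loci with no named probe set. *GSTU20* at -0.792 is the filled circle.

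Heme and chlorophyll are made on a shared route that begins with glutamate. The list for heme synthesis and breakdown held 24 genes, of which 8 could be named on the arrays, and 1 of these was lower in *aln-1* at an adjusted p under 0.05 from limma while none was higher. Over all features 8.17% were lower and 7.42% higher, so 1 of 8 was near the background. At an unadjusted p under 0.05 from limma, 4 of the 8 passed, 3 of them lower, beside 20.8% lower and 14.5% higher over all features. The median difference of the 8 was -0.119, beside -0.0320 over all features. *HEME1*, which encodes uroporphyrinogen decarboxylase, an enzyme of the route before heme and chlorophyll part, was the gene lower at the adjusted threshold. It scored 0.794 and 0.661 in *aln-1*, against 1.02 and 1.01 in WT, a difference of -0.289 (SE 0.0592, adjusted p = 0.0361 from limma). Its adjusted p was 0.0778 without *aln-1* replicate 2, 0.197 without WT replicate 1 and 0.152 without WT replicate 2. *HEME2*, which encodes the same activity, had a difference of -0.202 (adjusted p = 0.103).

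*GSA1*, which encodes the aminotransferase that forms 5-aminolevulinate, had a difference of -0.198 (SE 0.0555, adjusted p = 0.0714), with arrays at 0.975 and 0.876 in *aln-1* against 1.09 and 1.15 in WT. *HEMB1*, for the next enzyme, had one of -0.127 (adjusted p = 0.157). *HEMA2*, 1 of the glutamyl-tRNA reductase genes that start the route, had the largest positive difference of the list, 0.281 (SE 0.108, adjusted p = 0.135). Its *aln-1* arrays, at 0.201 and 0.503, stood further apart than its WT arrays, at 0.119 and 0.0217. Its difference was 0.432 (adjusted p = 0.0191) without *aln-1* replicate 1 and 0.131 (adjusted p = 0.279) without *aln-1* replicate 2. *HEME2* and *GSA1* also passed without *aln-1* replicate 1, with -0.288 (adjusted p = 0.0278) and -0.248 (adjusted p = 0.0494), and had -0.117 and -0.149 without *aln-1* replicate 2. *HEMA3*, *HEMB2* and *HEMF2* had differences of 0.00719, 0.111 and -0.112, none past an adjusted p of 0.05. The differences of this list on all 4 arrays thus lay between -0.289 and 0.281. The heme oxygenase genes, which open the heme ring, and the ferrochelatase genes, which insert the iron, lacked a named probe set and are not covered here.

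In the chlorophyll branch, 4 of 22 genes could be named on the arrays. Of these, 1 was lower at an adjusted p under 0.05 from limma, beside 8.17% over all features. A single call among 4 genes is too few to set against that share. Without adjustment 2 of the 4 were lower at a limma p under 0.05, beside 20.8% of all features. That too is a count among few genes. The median difference of the 4 was -0.220, beside -0.0320 over all features. *CHLI2*, which encodes a subunit of the magnesium chelatase that commits the route to chlorophyll, scored 0.500 and 0.288 in *aln-1*, against 0.754 and 0.801 in WT. Its difference was -0.384 (SE 0.0796, adjusted p = 0.0373 from limma), with an adjusted p of 0.0558 without *aln-1* replicate 2, 0.177 without WT replicate 1 and 0.168 without WT replicate 2. *CHLM*, for the methyltransferase of the branch, and *PORB*, for the light-dependent protochlorophyllide oxidoreductase, had differences of -0.265 (adjusted p = 0.141) and -0.176 (adjusted p = 0.157). Both passed when *aln-1* replicate 1 was left out, with -0.413 (adjusted p = 0.0168) for *CHLM* and -0.268 (adjusted p = 0.0378) for *PORB*, and without *aln-1* replicate 2 they had -0.117 (adjusted p = 0.277) and -0.0840 (adjusted p = 0.394). *NOL*, which takes part in the breakdown of chlorophyll b, had one of 0.111 (adjusted p = 0.246).

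Of 15 genes for other small heme proteins, 3 could be named on the arrays. At an adjusted p under 0.05 from limma, 1 of them was lower, beside 8.17% of all features. A single call among 3 genes is too few to set against that share. *CYTC6A*, which encodes cytochrome c6A, a heme protein of the chloroplast thylakoid lumen, was the gene lower at that threshold. It scored 0.244 and 0.159 in *aln-1*, against 0.969 and 1.01 in WT, a difference of -0.789 (SE 0.0511, adjusted p = 0.00406 from limma). The arrays of the genotypes were well apart, and without WT replicate 1 the adjusted p was 0.0517 with a difference of -0.809. The mitochondrial cytochrome c genes *CYTC-1* and *CYTC-2* had differences of -0.00568 (SE 0.0476, adjusted p = 0.945) and 0.0598 (SE 0.0643, adjusted p = 0.546), and the sign of *CYTC-1* was positive after each array was centred on its median. The median of the 3 was -0.00568, beside -0.0320 over all features.

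**Figure D5:**
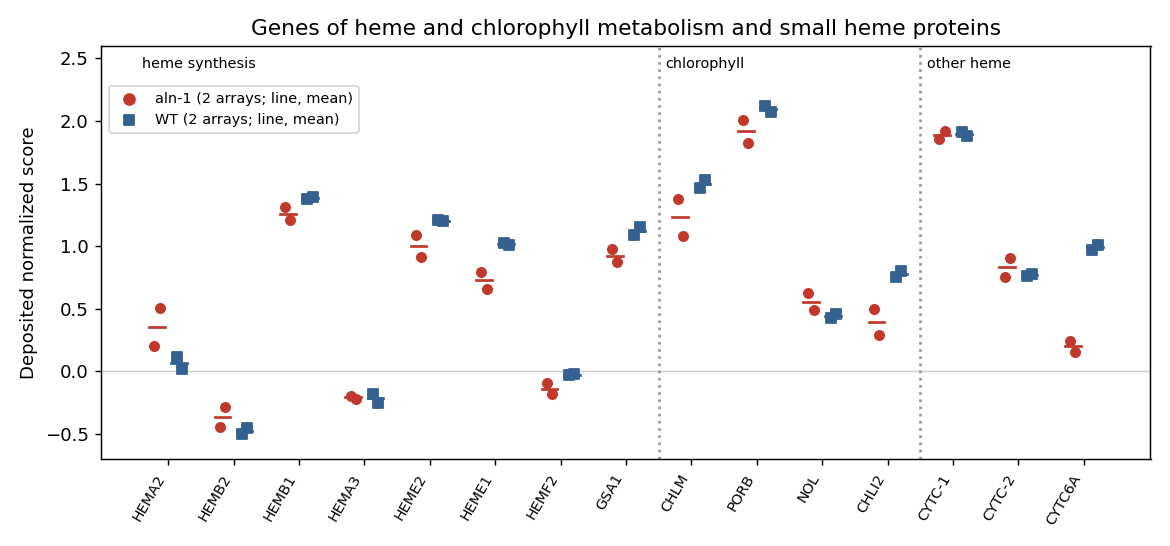
Deposited normalized score (y axis) of the measured genes of heme synthesis, the chlorophyll branch and other small heme proteins (x axis) on 2 *aln-1* arrays (circles) and 2 WT arrays (squares), with lines at the means. *CYTC6A*, with means of 0.201 in *aln-1* and 0.990 in WT, shows the widest gap.

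The genes whose scores on the 4 arrays lay closest to those of each member were found by Euclidean distance, among the 12719 named genes. For AT1G78450 these were AT2G15042 (distance 0.164), AT4G19430 (0.216), AT5G48490 (0.236), AT5G59670 (0.281) and AT3G60920 (0.296). Their differences ranged from -1.49 to -1.26. AT2G15042, the closest, scored -0.305 and -0.347 in *aln-1*, against 1.07 and 0.885 in WT. None of the 5 is on chromosome 1. For AT1G78460 they were AT1G02300 (distance 0.189), AT1G22430 (0.207), AT4G27300 (0.224), AT4G27050 (0.277) and AT3G29240 (0.281), with differences from -0.892 to -0.562. AT1G02300, the closest, scored 0.663 and 0.479 in *aln-1*, against 1.22 and 1.24 in WT. Because the genes were picked on the same 4 scores, differences near the member's follow from the choice, and nothing is read from them. The likenesses rest on 4 arrays of 2 genotypes. Each probe set has its own response, so closeness in score is not closeness in transcript level.

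The tissue given by the labels could be checked only in part. None of 10 leaf markers and none of 5 seed markers had a named probe set, while *PORB* and *CHLM*, genes of green tissue, scored 2.01 and 1.83, and 1.38 and 1.08, in *aln-1*, against 2.12 and 2.07, and 1.47 and 1.53, in WT. Of 8 root markers, 4 were measured, and all 4 had higher scores on both *aln-1* arrays than on both WT arrays, which 25.4% of all features did. Of the 4, 1 was higher in *aln-1* at an adjusted p under 0.05 from limma, beside 7.42% of all features. Without adjustment 2 were higher, beside 14.5%. Such counts among 4 markers are too small to set against those shares. The gene called was the root hair expansin gene *EXPA7*, with a difference of 0.250 (SE 0.0551, adjusted p = 0.0431 from limma). It had low scores of -0.104 and 0.00141 in *aln-1* against -0.277 and -0.324 in WT. *EXPA7* had an adjusted p of 0.108 without *aln-1* replicate 2, 0.183 without WT replicate 1 and 0.187 without WT replicate 2. The other 3, *EXPA18*, *PRX44* and *PYK10*, had adjusted p-values from 0.0918 to 0.555 from limma. *EXPA18* had a difference of 0.312 without *aln-1* replicate 1. *PYK10* scored 2.666 and 2.731 in *aln-1*, against 2.648 and 2.665 in WT, above *PORB* and *CHLM* on every array. Its lower *aln-1* array was barely above its higher WT array, so *PYK10* adds little to the count of 4. Between 99.8% and 99.9% of all features scored below *PYK10*, so a root marker was among the highest scores in both genotypes. The part of root tissue in the values of the SOUL pair was not tested, and fewer cells of a type cannot be told apart from less RNA in each cell in such samples.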

How the data were processed

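ATH1 arrays of an earlier series were renormalized by the authors with a three-parameter lognormal model (SuperNORM data service), and the deposited table holds 1 normalized score for each probe set and array. The sources used here state neither the summary of probes nor the log base. The deposited table also holds the p-values of the authors' two-way ANOVA, for the genotype and for an interaction, which were not used. Of 22746 probe sets without the 64 controls, 842 had no values, while the platform's annotation gave 1 gene for 13513, several for 503 and none for 8730. Symbols and gene order came from the TAIR10.1 gene table, where 13436 of the single-gene probe sets were found by gene ID. A gene was represented by its probe set with the highest mean.

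The limma package 3.58.1 (lmFit, then eBayes, under R 4.3.3) was used to compare the genotypes, genotype being the only term, with Benjamini-Hochberg adjustment over 21754 features (prior degrees of freedom 3.11), after the fit had been tested on simulated data. The methods' ANOVA needs probe-level values, which were not used here. Calls used an adjusted p under 0.05. SDs are of 2 arrays, and SEs are those of the moderated fit. The named genes are the pair, *ALN*, the measured neighbours, list members and markers, and the 5 closest score profiles for each member. The pair, the lists and every test and alternative were chosen with earlier results of these data known. Alternatives changed the normalization, the centring, the low-value filter, the variance prior, the replicate block, the probe sets used, the source table and the arrays included.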

Additional observations from a re-analysis of the deposited data

How the results depend on the processing

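AT1G78450 and AT1G78460 stayed lower in *aln-1* under the 13 alternatives, but most of these could not have shown otherwise. Every pairing of an *aln-1* with a WT array was negative for both genes, so leaving 1 array out could not turn the sign. Leaving 1 array out assumes that a lone array varies like those of the other genotype. The difference then lay between -1.47 and -1.33 for AT1G78450 and between -0.837 and -0.689 for AT1G78460. With 2 arrays per genotype, such a move cannot exceed the gene's SD between replicates pooled over the genotypes, 0.0819 and 0.0737. The size of these moves is therefore fixed by the replicate spread and is no test of stability. The alternatives that kept every array moved neither difference by more than that SD. Quantile normalization gave -0.774 and centring -0.745 for AT1G78460, moves larger than the gap of 0.00263 between its WT arrays. The comparisons with AT1G17100 and AT2G37970 were not run, since neither gene had a named probe set. *ALN* kept its sign, with differences from -0.463 to -0.388 when an array was left out. With 1 array left out, calls over all features ranged from 71 to 2114 for higher and from 61 to 2372 for lower, the smallest counts without WT replicate 1. Without WT replicate 2 they were 288 and 256, and without *aln-1* replicate 2 they were 1021 and 882.

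The replicate number as a block moved the neighbours called lower to 3, with *GSTU20* joined by AT1G78410 (adjusted p = 0.0394) and AT1G78480 (adjusted p = 0.0388). It left *EXPA7* at an adjusted p of 0.0508 and put *EXPA18* at 0.0394. The deviations of same-numbered arrays correlated at 0.0413 across features, and nothing in the labels pairs them. Leaving out the third of features with the lowest mean removed AT1G78400, AT1G78410, AT1G78530 and *GSTU21* from the neighbours tested. Among the neighbours left, 2 were called lower, which adds AT1G78550. With a variance trend the count of neighbours called lower was 2, which adds AT1G78410, against 1 otherwise. When an array was left out it ranged from 0 to 2, with 0 to 1 called higher. Over the same fits, 0 to 3 heme genes and 0 to 3 chlorophyll genes were called lower, 0 to 1 heme genes higher, and 0 to 1 of the other heme proteins lower. *CYTC-1* changed sign after centring (0.0125). With 1 array left out its difference lay between -0.0371 and 0.0258, positive without *aln-1* replicate 1 or WT replicate 1. That of *CYTC-2* lay between -0.0180 and 0.138, negative without *aln-1* replicate 2, and that of *HEMA3* between -0.0307 and 0.0451, negative without *aln-1* replicate 1 or WT replicate 2. None of these passed the test in any setting.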
